A study of Mus musculus with 4 samples.

Results

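The synaptic vesicle and SNARE machinery is the set of proteins that load, dock, fuse and retrieve transmitter vesicles. Its expression was described in the CA1 field of the mouse hippocampus over 4 expression arrays. Members were taken by gene symbol: synaptotagmins, synapsins, synaptophysins, SNAP, VAMP and syntaxin genes, syntaxin-binding proteins, Rab3 GTPases, complexins, Nsf and its adaptors, Unc13, dynamins, synaptojanins and endophilins. They came to 74 probe sets (groups of short array probes that together report 1 transcript) for 56 genes, of 10833 probe sets and 8251 genes with a single symbol. No probe set with a single symbol was found for Syn1, Synj1, Unc13a, Amph, Slc17a7 or any Sv2 or Rims gene among the values used, so these are not analysed here.

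All arrays held total RNA from young C57BL/6J male mice that had been handled and were neither shocked nor treated in another way. There was 1 array at each of 1, 2, 4 and 6 hr, the hour of RNA extraction counted from the last shock of a separate set of mice. The arrays are thus untreated controls that differ by extraction time, with no replicate at any time, and time cannot be told apart from whatever else sets one sample or array off from the next. The number of animals behind each array is not stated in the labels used here. In a tissue sample, fewer cells of a type and less RNA per cell cannot be told apart.

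As background, a vesicle fuses when a VAMP on its membrane zips into a 4-helix bundle with syntaxin and SNAP proteins of the plasma membrane, under control of syntaxin-binding proteins, Munc13 proteins (the Unc13 genes) and complexins, and with a synaptotagmin as the calcium sensor. Nsf and its SNAP adaptors (the Nap genes) then pull the spent bundle apart. Dynamin, synaptojanin and endophilin drive the retrieval of membrane. CA1 pyramidal neurons and the local interneurons hold this machinery in their axon terminals, and several of its families also have members that serve membrane traffic in every cell.

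The brightest probe sets, for the SNAREs Vamp2 and Snap25 and the dynamin Dnm1, differed by at most 1.26-fold between any 2 arrays. Syt1 and Stx1a, also of the fusion core, differed by 1.58-fold and 1.82-fold. Cplx2 differed by 3.29-fold and Nsf by 2.53-fold. Nsf and Cplx2 were both high at 1 and 6 hr and low at 2 and 4 hr. Of 2 forms of the vesicle GTPase, Rab3a was lowest and Rab3b highest at 1 hr. No member passed the test of a linear trend over time, which cannot pick up an order such as that of Nsf and Cplx2.

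Values are linear intensities as deposited. Values under 54.7 were raised to that floor, log2 values were taken, and probe sets with a mean level above 114 were tested. Of the 74 member probe sets 56 passed, for 47 genes, and 18 did not. Just outside the limit were Stx3 (87.5) and Unc13b (84.0), and just inside were Snap23 (114) and Vamp1 (118). The median intensity of the arrays ran from 173 at 2 hr to 204 at 4 hr. Of the CA1 markers, the probe set for Wfs1 read 1753, 2594, 2574 and 1668 in time order and that for Pou3f1 lay between 426 and 613. The CA1 list (5 of 8 measured) summed to 6884, 8754, 6960 and 7314.5 in time order. Markers listed for neighbouring fields were measured too. The dentate granule list (6 of 7 measured) summed to between 2553 and 3134. Its defining marker Prox1 lay between 14.6 and 106.6 and was under the floor at 2 and 4 hr. The sum thus does not show that dentate cells were present. The CA3 list (4 of 6 measured) summed to 3814.5 at 1 hr and to 2350.1 to 2654 on the other arrays, although Bok was highest at 4 hr, at 1138. Camk2a, of excitatory neurons, was under the floor on all arrays through one probe set and between 53.2 and 161 through the other. Ttr, of the choroid plexus, read 3217 at 4 hr and 140.3 to 196 on the other arrays.

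A linear trend in hours was estimated with limma for all 7453 tested probe sets, which left 2 residual degrees of freedom. Of the 56 members 0 passed after Benjamini-Hochberg adjustment, and of all 6710 tested probe sets with a single symbol 0.0% passed; the smallest adjusted p of a member under limma was 0.884. At an unadjusted p under 0.05 there were 5 members. One of them, Stxbp2, was higher with time (1.79% of members, against 2.68% of all), and 4, namely Rab3b, Stxbp3, Vamp1 and Sh3glb1, were lower (7.14%, against 2.21% of all). Ordinary least squares gave 0 after adjustment and 2 at an unadjusted p under 0.05. Slopes were above 0 for 24 members and below 0 for 32, with a median of -0.015 (log2 per hr), against 0.0010 for all.

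The spread over the arrays was wide for a part of the members. The highest array was at least 2-fold above the lowest for 18 of 56 probe sets (32.1%), against 24.8% of all. This share fell with brightness in both. Among probe sets with a mean level under 287 it was 9 of 14 members and 53.4% of all. Between 287 and 723 it was 7 of 20 members and 17.4% of all, and above 723 it was 2 of 22 members and 3.53% of all. Those 2 were Nsf and Cplx2. The count of 18 became 10 of 53 without the 1 hr array (16.7% of all) and 9 of 42 with only probe sets above the 60th percentile of level tested (10.5% of all). The median difference of the members from the other 3 arrays was, in time order, 0.06, 0.08, 0.05 and -0.02 log2 units, against 0.02, -0.0019, 0.04 and 0.02 for all. The value at 2 hr depended on the floor and the filter as well: on the deposited scale it was 0.16 with a floor at the 10th percentile and 0.17 with a filter at the 60th. With the arrays set to a common median, the median difference of all tested probe sets at 2 hr became 0.22 log2 units, and that of the members became 0.30.

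**Figure D1:**
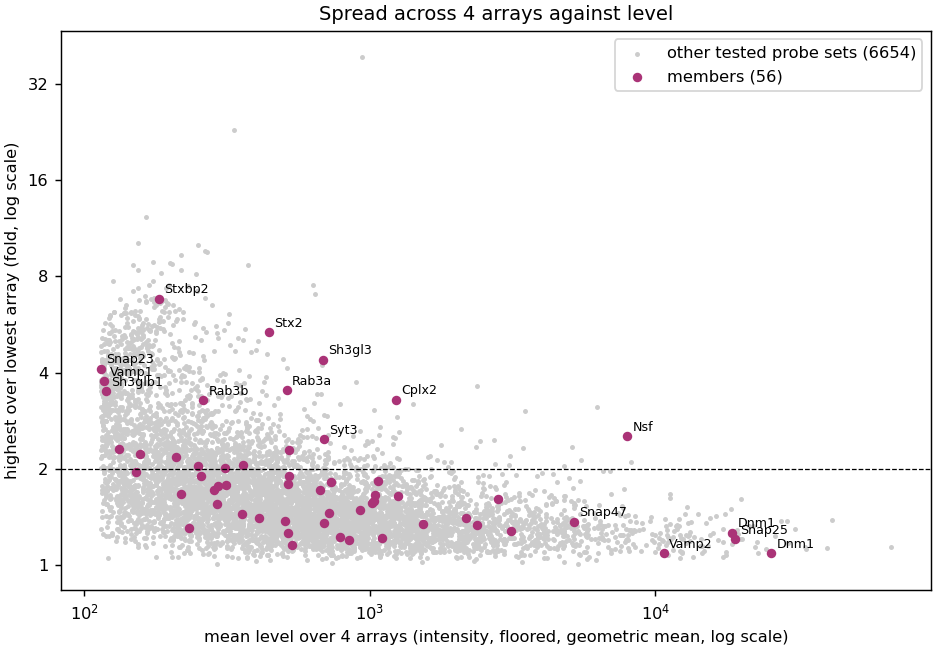
Highest over lowest array in fold (log axis) against the mean level over 4 arrays (intensity, log axis) for each tested probe set, with the 56 members as large points over the other tested probe sets in grey; the dashed line marks 2-fold. Nsf and Cplx2 lie above the line at levels where few probe sets do, while Snap25, Dnm1 and the bright Vamp2 probe set lie near 1; the dim Vamp2 probe set lies at 2.18-fold.

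Nsf, the ATPase that takes spent SNARE bundles apart, read 11628, 7009, 4600.3 and 10702 in time order (mean 8485 ± 3269, SD over the 4 arrays, 1 at each time). The arrays at 1 and 6 hr were close to each other and both were at least 1.53-fold above those at 2 and 4 hr. Cplx2, a complexin that clamps and promotes fusion, read 2116, 809, 644 and 2087 in time order, with the same arrays high and low. Cplx1, the complexin paralog, read 1209, 772.0, 955 and 1196 within a smaller range of 1.57-fold. A Napb probe set, of a brain adaptor of Nsf, read 741, 324, 419 and 726, but it carries the suffix that this array type gives to probes shared within a sequence family. The other Napb probe set read 3374, 3069, 2097 and 2828 and was not low at 2 hr. Napa, the general adaptor, read 2994, 3658, 3059 and 2865, within 1.28-fold, and was highest at 2 hr, where Nsf was low.

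The order with both 1 and 6 hr at least 1.5-fold above both 2 and 4 hr was defined after these values were seen. It held for 3 of 56 members (Nsf, Cplx2 and the family probe set of Napb) and 1.54% of all, and for 2 of 56 (Cplx2 and Napb) once the arrays had a common median, where it held for 1.01% of all. The Gapdh 3' to 5' signal ratio, which rises as RNA or its labelled copy is shorter, was 4.84, 7.56, 6.25 and 4.89 in time order. It was higher at 2 and 4 hr, where Nsf and Cplx2 were lower. The same ratio of Actb did not divide in this way, at 3.44, 3.20, 3.24 and 2.99. That of Tfrc was 0.909, 1.37, 9.08 and 1.36, with 5' values as low as 16.9, and that of Pc was 13.9, 8.46, 6.09 and 2.50, lower at each later time. Blood markers, of which 2 of 4 were measured neither of them at 0, summed to 3959, 1987, 2502 and 3181 in time order. General neuron markers (11 of 12 measured, no gene of them under the floor on all arrays) summed to between 34879 at 1 hr and 37074 at 6 hr. The CA1 marker Wfs1 was higher at 2 and 4 hr, at 1753, 2594, 2574 and 1668. Pou3f1 did not divide in this way, at 462, 426.5, 613 and 551. The part of the Gapdh ratio, of blood and of CA1 cells in the values of Nsf and the complexins was not tested. Their limma slopes, 0.03 ± 0.19 for Cplx2, -0.03 ± 0.14 for Nsf and 0.03 ± 0.08 for Cplx1 (SE, log2 per hr), were smaller than their SE. A straight line cannot follow values that are high at 1 and 6 hr and low at 2 and 4 hr. These slopes thus do not bear on that order.

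**Figure D2:**
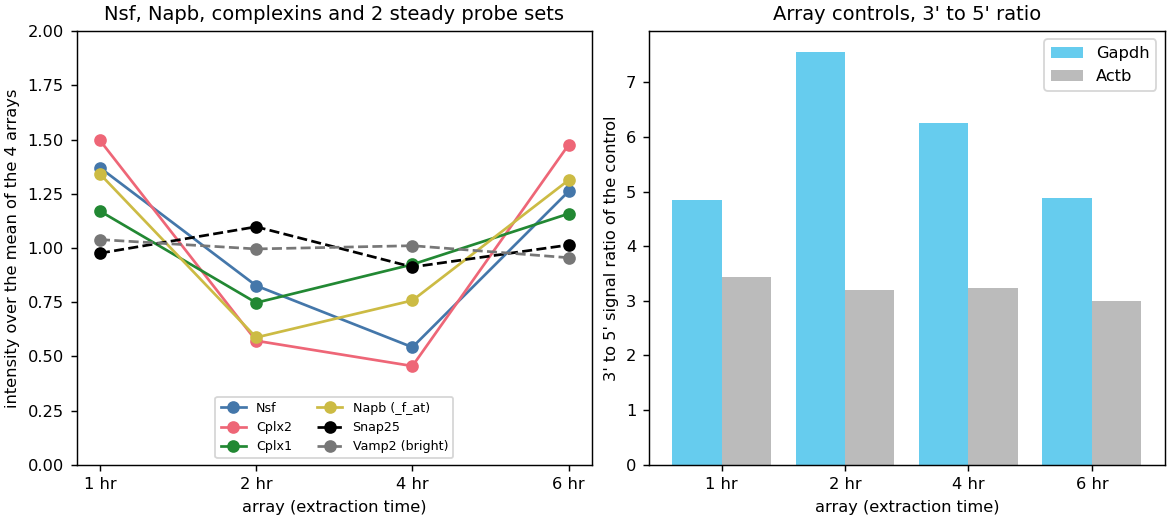
Left, intensity on each array divided by the mean of the 4 arrays for Nsf, Cplx2, Cplx1 and the family probe set of Napb (solid) and for Snap25 and the bright Vamp2 probe set (dashed), 1 array per time. Right, the 3' over 5' signal (a ratio) for the Gapdh and Actb controls on the same arrays. The Gapdh ratio is 7.56 and 6.25 at 2 and 4 hr, where Nsf is lowest, and 4.84 and 4.89 at 1 and 6 hr. The Actb ratio does not divide in this way, at 3.44, 3.20, 3.24 and 2.99 in time order.

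The stretch of 250 bases before the start of the gene is shown for Nsf, Cplx1, Rab3a and Rab3b. Nsf and Cplx1 were both higher at 1 and 6 hr than at 2 and 4 hr. Cplx1 was only 1.25-fold higher at 6 hr than at 4 hr, below the fold limit set above for that order. No window is shown for Cplx2, which met that limit. Rab3a was lowest and Rab3b highest at 1 hr. The sequences are those of RefSeq on GRCm38.p6, 5′ to 3′ on the strand of the gene, and lie wholly outside the annotated gene. Nsf lies at chr11:103954057-103954306 on the minus strand, Cplx1 at chr5:108550028-108550277 on the minus strand, Rab3a at chr8:70754453-70754702 on the plus strand and Rab3b at chr4:108878820-108879069 on the plus strand. Capitals mark any match, on either strand, to TATAAA (the TATA box), CCAAT (the CCAAT box), GGGCGG (the GC box), TGACGTCA (the cAMP response element) or CACGTG (an E-box).
Nsf: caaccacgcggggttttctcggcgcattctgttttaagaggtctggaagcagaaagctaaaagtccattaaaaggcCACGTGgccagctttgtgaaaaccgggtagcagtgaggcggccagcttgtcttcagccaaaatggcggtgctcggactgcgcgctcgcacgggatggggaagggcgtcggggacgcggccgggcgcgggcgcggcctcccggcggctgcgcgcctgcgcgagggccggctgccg
Cplx1: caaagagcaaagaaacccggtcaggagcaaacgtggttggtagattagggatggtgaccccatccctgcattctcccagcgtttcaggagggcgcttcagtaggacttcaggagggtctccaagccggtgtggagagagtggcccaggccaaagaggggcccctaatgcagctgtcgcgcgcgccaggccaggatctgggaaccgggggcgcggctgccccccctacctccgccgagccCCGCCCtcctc
Rab3a: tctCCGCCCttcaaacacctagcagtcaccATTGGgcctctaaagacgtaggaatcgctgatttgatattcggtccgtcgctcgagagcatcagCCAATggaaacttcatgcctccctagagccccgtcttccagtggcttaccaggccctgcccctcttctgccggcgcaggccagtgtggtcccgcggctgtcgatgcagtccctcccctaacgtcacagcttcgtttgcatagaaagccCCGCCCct
Rab3b: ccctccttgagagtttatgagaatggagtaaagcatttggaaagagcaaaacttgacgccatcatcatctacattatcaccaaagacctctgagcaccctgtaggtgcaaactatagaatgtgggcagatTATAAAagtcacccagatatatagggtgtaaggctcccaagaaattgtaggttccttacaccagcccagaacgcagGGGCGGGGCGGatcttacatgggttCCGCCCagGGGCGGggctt

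Nsf and Cplx1 had no marked motif in common in this window: Nsf held 1 CACGTG and Cplx1 held 1 GGGCGG. This does not bear on Cplx2 and Napb, which met the fold limit with Nsf, since no window of theirs is shown. Rab3a held 2 CCAAT and 2 GGGCGG, and Rab3b held 1 TATAAA and 4 GGGCGG, 2 of which overlap. The promoter table held 64 windows for 48 member genes. GGGCGG was in 38 of those 64 (59.4%), against 32.7% of all 32851 windows of the same length. The median GC content of the member windows was 60.4%, against 52.4% of all. CACGTG was in 9 of 64 (14.1%, against 6.02% of all), CCAAT in 32.8% (33.8% of all), TATAAA in 7.81% (12.4% of all) and TGACGTCA in 3.12% (1.55% of all). These are matches of letters and not measured sites.

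Rab3a, the main GTPase of synaptic vesicles, read 215 at 1 hr and then 676, 621 and 757 at 2, 4 and 6 hr. The 1 hr array alone was low, and the other 3 lay within 1.22-fold. Rab3b, its paralog, read 436, 306, 260.2 and 133 in strict time order, a 3.28-fold range and a limma slope of -0.31 ± 0.07 (log2 per hr, SE, adjusted p = 0.884). On the 1 hr array Rab3a was thus at its lowest and Rab3b at its highest. A second Rab3a probe set was under the floor on all arrays, with values of 7.0 to 43.9, as was that for Rab3d, at 32.4 to 49.1. Unc13b, a Munc13 priming factor, read 65.7, 148.8, 92.8 and 54.9 and did not pass the filter on level.

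The 2 vesicle SNARE probe sets above a level of 723 were steady, as bright probe sets mostly were (3.53% of all had a 2-fold range there). Vamp2, the VAMP of transmitter release in the forebrain, read 11107, 10646, 10806 and 10213 through its bright probe set (10693 ± 373, SD over 4 arrays), a range of 1.09-fold. Its dim probe set read 148, 183, 323 and 219, highest at 4 hr by 2.18-fold over 1 hr. Vamp1, which serves release in other neuron types, read 206, 115, 149 and a value under the floor at 6 hr, at least 3.76-fold from highest to lowest. A further Vamp1 probe set lay under the floor at 1 and 6 hr and read 162 at 4 hr, so both of its probe sets were lower at 6 hr than at 4 hr while they disagreed at 1 hr.

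Of the VAMPs of general membrane traffic, Vamp4, of the trans-Golgi and endosomes, read 858, 927, 774 and 835 through the brighter probe set, within 1.20-fold. The dimmer one read 717.5, 855, 497 and 663, a wider range of 1.72-fold with the same highest and lowest arrays. Vamp3, or cellubrevin, read 164, 273, 243 and 210.4. Vamp8, of endosomes, read 686, 589.6, 798.5 and 715 through its bright probe set, which is of the sequence family type. Vamp7, of late endosomes and lysosomes, read 152, 157, 174 and 75.2, which put the 6 hr array 2-fold or more below the others. Its second probe set, which did not pass the filter, read 136.5, 24.6, 33.8 and 59.8 and was not lowest at 6 hr. Vamp5 was under the floor on all arrays, at 26.9 to 35.9.

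Of the target membrane SNAREs, Snap25, the SNAP of transmitter release, was among the steadiest: it read 18581, 20903, 17370 and 19304 (19040 ± 1476, SD over 4 arrays), a range of 1.20-fold. Snap23, its general paralog, read 184, 74.9 and 225 at 1, 2 and 4 hr and lay under the floor at 6 hr, a range of at least 4.11-fold. The 4 arrays of Snap23 fell in no order of time. Snap47 read 5018, 6105, 5267 and 4463, within 1.37-fold. Stx1a, the syntaxin of synaptic release, read 926.5, 509.9, 774.5 and 787, lowest at 2 hr by 1.82-fold.

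Stx2, a plasma membrane syntaxin of many tissues, varied widely. It read 164, 642, 877 and 417 in time order, with the 1 hr array at least 2-fold below each of the others and a range of 5.35-fold. The endosomal and Golgi syntaxins were closer to level. Stx7 read 2138, 2563, 2189 and 1822, Stx12 read 2482, 2571, 2536 and 1929, and Stx6 read 319.5, 346, 222 and 297. Stx4a read 779.7, 710.2, 872 and 794, a range of 1.23-fold, Stx5a ran from 572 at 2 hr to 830.5 at 6 hr, and Stx18 and Stx8 had ranges of 1.78-fold and 1.77-fold. The 3 probe sets of Stx3 did not pass the filter. In the whole class 2 of 12 probe sets had a 2-fold range (16.7%, against 24.8% of all), those for Snap23 and Stx2.

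The paralogs of synaptic release were set beside those of general traffic. Of 5 tested probe sets for Snap25, Vamp1, Vamp2 and Stx1a, 2 had a 2-fold range (Vamp1 and the dim Vamp2 probe set), with a median range of 1.82-fold. Of 18 for general SNAREs and their syntaxin-binding proteins, 6 did, with a median of 1.69-fold. Of all tested probe sets 24.8% did, with a median of 1.56-fold. General paralogs were lowest at 6 hr in 7 of 18 probe sets and highest there in 1, against 22.6% and 22.9% of all.

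All 3 tested probe sets of syntaxin-binding proteins had a 2-fold range, against 24.8% of all. They were not bright: 2 of them lay under a level of 287, where 53.4% of all had such a range. Stxbp2, the form of secretory cells outside neurons, lay under the floor at 1 hr and read 181, 372.5 and 304 later, at least 6.81-fold from lowest to highest, and its limma slope, from floored values, was 0.46 ± 0.16 (log2 per hr, SE, adjusted p = 0.946). Its other probe set was highest at 1 hr, at 395 against 196, 359 and 343, so the low value at 1 hr was seen through one of the probe sets and not through the other. Stxbp3, the widely expressed form, read 338.5, 324, 219 and 165 in strict time order, with a limma slope of -0.22 ± 0.06 (log2 per hr, SE, adjusted p = 0.884).

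Calcium sensors had 12 genes, of which 7 were tested. Syt1, the sensor of fast release in the forebrain, read 1234, 1305, 852 and 824 in time order. Its limma slope was -0.14 ± 0.07 (log2 per hr, SE, adjusted p = 0.972). Syt5 read 1214, 907, 815 and 822, highest at 1 hr. Syt11, which lacks calcium binding, read 494, 600.3, 500.3 and 477, within 1.26-fold.

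Syt2, the fast sensor of other neuron types, read 510.4, 590.4, 520.4 and 525 through its brighter probe set, a range of 1.16-fold, and 240.1, 108, 190.2 and 124 through the dimmer one. Syt3 read 909, 367, 869.7 and 777, with the 2 hr array 2-fold or more below each of the others, while its second probe set, of the sequence family type, read 309.5 there and 191 to 362 on the other arrays. Syt17 read 1058, 1607, 977 and 1469.8, and Syt4, which does not support fast release, read 317, 262, 214 and 368. Syt6 and Syt9 were under the floor on all arrays. Syt7, a slow high-affinity sensor, Syt8 and Syt10 did not pass the filter on level.

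The 4 vesicle membrane proteins each had 1 probe set, and none had a 2-fold range. Syn2, a synapsin that tethers vesicles to one another, read 1746, 1479, 1302 and 1644. Syp, synaptophysin, read 490.4, 389.6, 699.5 and 543, with 4 hr highest by 1.80-fold over 2 hr. Sypl, a widely expressed relative, read 837, 1386, 871 and 1167. Sypl2, known from skeletal muscle, read 161, 113, 133 and 221, with its lowest array at 2 hr, as for Syp.

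In endocytosis, Dnm1, the neuronal dynamin that cuts vesicles from the membrane, was steady through both probe sets. One read 26152, 24867, 26479 and 24293 (25448 ± 1038, SD over 4 arrays), a range of 1.09-fold, and the other read 18426, 17821, 21421 and 16976, a range of 1.26-fold. Dnm2, the general dynamin, read 479.6, 322, 468.5 and 233 through a probe set of the sequence family type, lowest at 6 hr by 2.06-fold. Its second probe set, which did not pass the filter, lay under the floor except at 6 hr, where it read 142. The low value of Dnm2 at 6 hr was thus not seen through both probe sets.

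Sh3gl3, an endophilin, read 488, 1597, 779.6 and 363, and at 2 hr it stood 2-fold or more above each other array. Sh3gl2, the endophilin of synapses, read 370.0, 703, 533 and 530.2 and was also highest at 2 hr. Snap91, a clathrin assembly protein named AP180 that is no SNARE, read 820.1, 1501, 1172 and 912, highest at 2 hr too. Sh3gl1 read 560.4, 413, 485 and 569 and was lowest at 2 hr, so the endophilins did not share an order. Synj2, a phosphoinositide phosphatase, read 364, 478, 473 and 340.5.

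Of the 8 endocytosis probe sets 5 were lowest on the 6 hr array, as were 20 of 56 members (35.7%) and 22.6% of all. Oligodendrocyte markers (8 of 11 measured, no gene of them under the floor on all arrays) summed to 18127 at 6 hr and to 23092 to 24614 on the other arrays. Endothelial and mural markers (10 of 10 measured, no gene of them under the floor on all arrays) summed to 1731 at 6 hr and to 2167 to 2296 on the others. The part of these cell types in the members' low values at 6 hr was not tested. On the 2 hr array 19 members were highest (33.9%), against 25.04% of all.

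**Figure D3:**
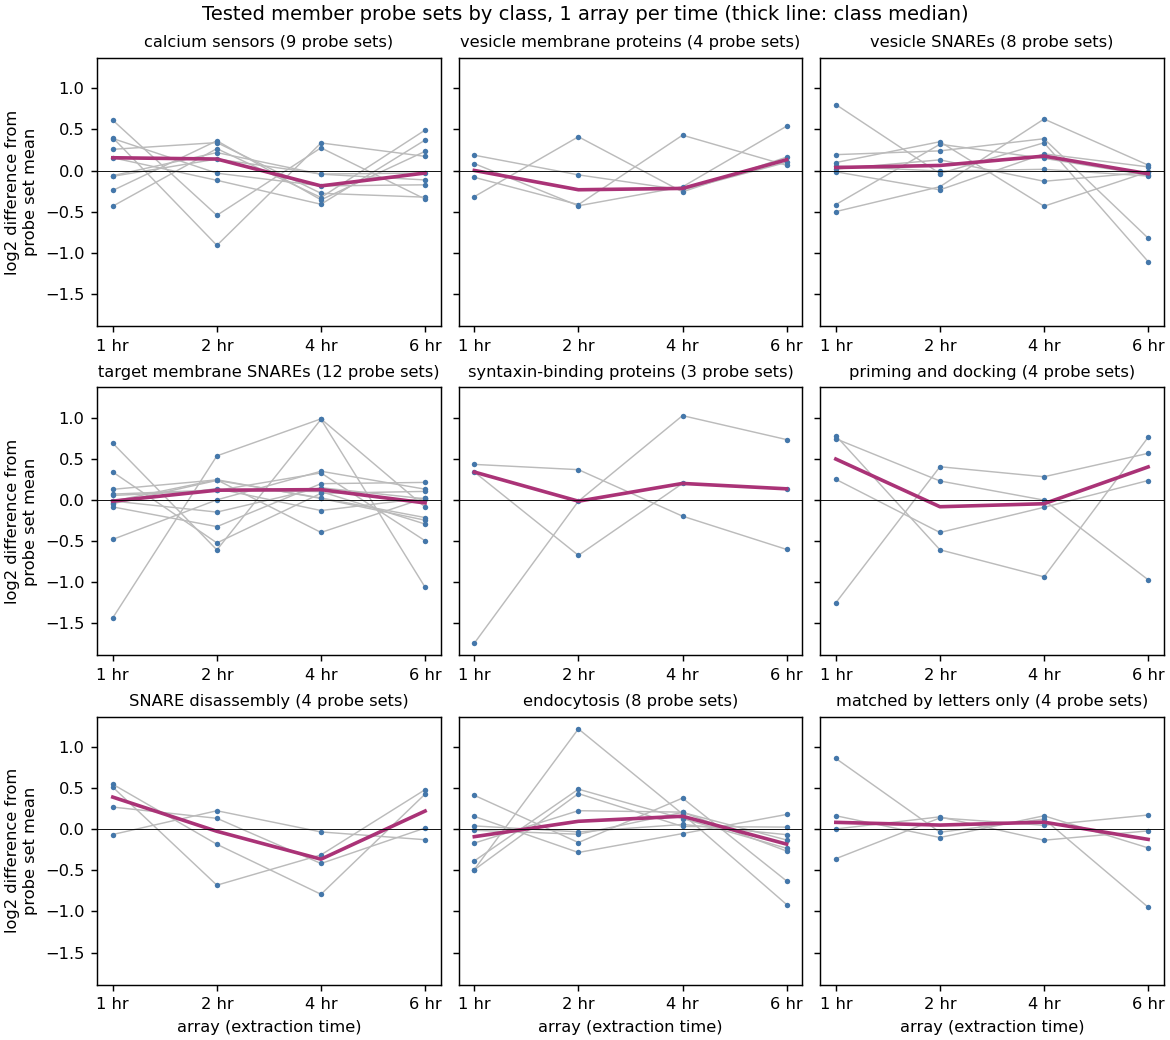
Difference of each tested member probe set from its own mean over the 4 arrays (log2, floored), by array and class; thin lines join the values of a probe set and the thick line is the class median, with 1 array per time. The class medians of SNARE disassembly and of priming and docking are high at 1 and 6 hr. Single members differ, since Napa and Rab3b are lowest at 6 hr and Rab3a at 1 hr. Single probe sets such as Stx2 and Stxbp2 at 1 hr lie farther from 0 than any class median.

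An array stood apart for a probe set where it differed from each remaining array by 2-fold or more in the same direction. At 1 hr 3 members were low (Rab3a, Stx2 and one probe set of Stxbp2, 5.36%, against 1.92% of all) and 0 were high (0.447% of all). At 2 hr Sh3gl3 was high (1.79%, against 0.209% of all) and Syt3 was low (1.79%, also 1.79% of all). At 4 hr 0 members were high (0.328% of all) and 0 were low (1.12% of all). At 6 hr 0 were high (0.358% of all), and Vamp1 and Vamp7 were low (3.57%, against 1.48% of all). With 56 members, each of these shares rests on at most 3 probe sets.

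Sh3glb1 and Synj2bp, an endophilin B and an outer membrane protein of mitochondria, were taken in by the letters of their symbols and are not known as vesicle fusion genes. Sh3glb1 read 262, 218, 262 and 199.7 through one probe set and 217, 116, 130.1 and 61.9 through the other. For the latter limma gave -0.30 ± 0.09 (log2 per hr, SE, adjusted p = 0.890). Synj2bp read 1102, 1220.3, 1002 and 1084 through its brightest probe set.

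Probe sets of 1 gene often differed. Of the 16 genes with more than 1 probe set, 9 had 2 that were tested. The brighter and the dimmer probe set had the same highest array in 4 of 9 genes (Dnm1, Napb, Sh3glb1 and Vamp4), against 30.6% of all 903 such genes. They had the same lowest array in 3 of 9 (Dnm1, Sh3glb1 and Vamp4), against 30.0%, and the same sign of 4 and 6 hr minus 1 and 2 hr in 5 of 9, against 55.8%. These shares are near those of all genes. The dimmer probe set had the wider range in 8 of 9 genes, all but Syt3, against 70.3% of all. For Vamp2 the ranges were 1.09-fold and 2.18-fold, for Syt2 1.16-fold and 2.23-fold, and for Sh3glb1 1.31-fold and 3.50-fold. The largest gap on an array, as the difference of the probe sets' deviations from their own means, had a median of 0.68 log2 units, against 0.55 for all, and was largest for Stxbp2, at 2.08. In 4 of the 9 genes a probe set had a suffix that marks shared, grouped or relaxed probes.

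**Figure D4:**
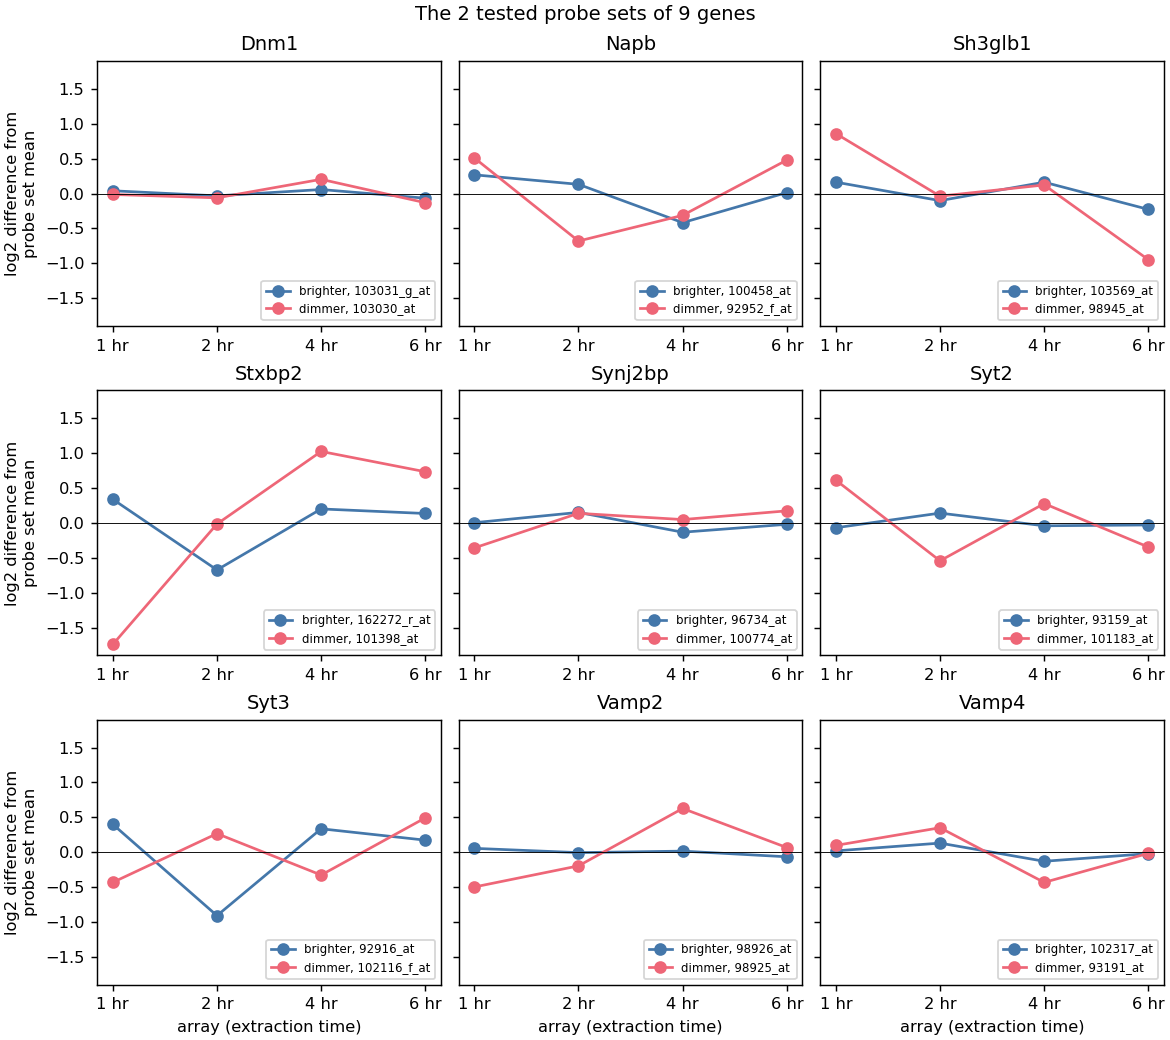
Difference from the probe set's own mean over the 4 arrays (log2, floored) for the brighter and the dimmer tested probe set of 9 genes, 1 array per time. Vamp4 and Dnm1 keep the same highest and lowest array in both, Stxbp2 and Syt3 do not, and the dimmer probe set has the wider range in all but Syt3.

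Other genes of the vesicle cycle that the symbols did not take in (active zone scaffolds, clathrin and AP2 subunits, proton pump subunits, synucleins, endosomal Rab GTPases and others) had 70 tested probe sets for 55 genes, of 92 listed. None passed limma's test after adjustment, and 0 did so in either direction at an unadjusted p under 0.05. A 2-fold range was seen in 9 of 70 (12.9%, against 32.1% of the members and 24.8% of all), with a median range of 1.42-fold, against 1.69-fold for the members and 1.56-fold for all. Dnajc5, the cysteine string chaperone of vesicles, read 216, 78.2, 243 and 327, and Rab5b, of early endosomes, lay under the floor at 1 hr and read 188, 138 and 231 later; these 2 had the largest differences of later over earlier arrays. Atp6v1g1, a proton pump subunit, read 2204, 2908, 1849 and 1702, and Rab5a read 2133, 2303, 1461 and 1760.1, the largest differences in the other direction.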

How the data were processed

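Total RNA was measured on 4 single-channel arrays, 1 at each extraction time. The authors deposited 1 linear intensity per probe set; software and summary method are not stated in the labels. The trimmed mean (2% off each end) was 500.3 on each array, so the arrays appear scaled to one level, which hides any change common to most genes. Probe sets were named from the platform annotation; all 74 members matched a RefSeq gene. The 66 control probe sets were not tested. The floor was the 25th percentile (54.7) and the filter the 40th percentile of mean log2 level. The trend was fitted with limma 3.58.1 in R 4.3.3 (lmFit, eBayes, two-sided, Benjamini-Hochberg at 0.05 over 7453 probe sets) and checked on simulated data. Its p-values measure only scatter about the fitted line, and this may be technical. An SD is over 4 arrays at different times. The number of arrays limits the precision, and the level of one probe set was not set against another's. Members, classes and lists were chosen with earlier results of these data known. Any member could be named; of the other vesicle cycle genes, the 2 largest differences of later from earlier arrays in each direction were named. Alternatives were quantile or median scaling, floors at the 10th and 40th percentile, other filters, each array left out, 1 probe set per gene, and other time models and variances.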

Additional observations from a re-analysis of the deposited data

How the results depend on the processing

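No member passed limma's trend test under any of 15 alternatives, where the smallest adjusted p of a member ran from 0.618 to 0.9995 and 1 to 6 members had an unadjusted p under 0.05. No paired analysis was possible because each time has 1 array. The 18 members with a 2-fold range were 9 of 42 with a filter at the 60th percentile (10.5% of all), where dim probe sets are not tested. With an array left out they were from 10 of 53 (without the 1 hr array, 16.7% of all) to 14 of 54 (without the 4 hr array, 17.7% of all). The 7 members standing apart became 4 of 56 with a floor at the 40th percentile and 4 of 42 with a filter at the 60th. The share of all probe sets standing apart was not computed under these settings, so these counts do not show a change particular to the members. The median difference of the members from the other arrays moved with the scaling, the floor and the filter: at 2 hr it was 0.14 after quantile normalization, 0.30 with a common median, 0.16 with a floor at the 10th percentile, 0.17 with a filter at the 60th, 0.16 with 1 probe set per gene and 0 with no filter. At 1 hr it was -0.027 with a common median, -0.0064 with a filter at the 60th and 0 with no filter, and at 4 hr -0.041 with a common median and 0 with no filter. Over all tested probe sets the same median was -0.065, 0.22 and -0.059 at 1, 2 and 4 hr with a common median, and 0, -0.016 and 0 with no filter. At 2 hr it was 0.044 after quantile normalization, -5.6e-05 with a floor at the 10th percentile, 0.037 with a filter at the 60th and 0.0071 with 1 probe set per gene. Why the members moved more or less than all was not tested. The array that was highest was the same under quantile normalization for 46 of 56 members and under a common median for 45, and the lowest for 52 under each. The genes whose probe sets shared a highest array were 4 of 9, 3 of 9 with a common median, 5 of 16 with no filter and 3 of 4 with a filter at the 60th percentile. Whether a dim probe set was above background is unknown, since no detection calls were used.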

Other observations

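Clta, a clathrin light chain that coats retrieved vesicles, was singled out after its values were seen because 1 of its probe sets was high and low on the same arrays as Nsf and Cplx2. It read 326, 80.7, 84.5 and 265.5 in time order, a range of 4.04-fold. Its other probe set was brighter and read 1586.5, 2524, 2117 and 2227, lowest at 1 hr, so the probe sets of this gene did not share an order. Clta was not alone among the other vesicle cycle genes. A probe set of Atp6v1a, a proton pump subunit, was also higher at 1 and 6 hr, at 3164, 1993, 1839 and 3311. The brighter probe sets of Atp6v1a did not share this order.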
